A study of Mus musculus with 8 samples.

Results

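The H3K27ac contacts of 9 genes of the JAK, STAT and PIM families were examined in HPC-7 cells carrying an isoform of the transcription factor CEBPA. The genes were the 4 Janus kinases Jak1, Jak2, Jak3 and Tyk2, the transcription factors Stat3, Stat5a, Stat5b and Stat6, and the kinase gene Pim1. They were chosen by name, out of 21757 protein-coding genes of the GENCODE annotation of GRCm39. A loop (2 bins of 5 kb each whose contact number exceeded that modelled by the caller, q-value under 0.01) was assigned to a gene when a bin held the start site of its canonical transcript. By this rule 71 of 80489 loops belonged to the 9 genes in untreated (UT) p30 cells, 101 of 94609 in p30 cells after LPS, 95 of 158233 in UT p42 cells and 57 of 78591 in p42 cells after LPS.

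HPC-7 is a mouse haematopoietic progenitor line with little CEBPA of its own, grown with stem cell factor. HiChIP ligates neighbouring stretches of chromatin and pulls the ligated DNA down with an antibody, here against H3K27ac, a mark of active promoters and enhancers. The 4 groups, p30 and p42 cells with UT and LPS libraries of each, had 2 libraries a group, and LPS, a bacterial ligand of TLR4, was given at 100 ng/mL for 2 h. Both libraries of a group were pooled in 1 deposited list, so the spread between replicates is unknown. The differences reported are between pooled libraries and are no test of the conditions. Per the study's methods, p42, the full-length protein, or p30, which lacks an N-terminal part, was delivered by a retrovirus with GFP and was fused to an ERT2 fragment that enters the nucleus with 4-hydroxytamoxifen. The methods state that cells with these fusions received the drug the day before an experiment, and the labels of these libraries do not mention it. Cells with an empty vector were not analysed here.

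In the JAK-STAT pathway, a cytokine bound to its receptor activates receptor-bound Janus kinases, which phosphorylate STAT proteins, and these then enter the nucleus as dimers and bind DNA. In blood progenitors the pathway carries the signals of growth factors and interferons, and STAT5 and STAT3 switch on the gene of PIM1, a serine/threonine kinase that supports survival. LPS acts through TLR4, which does not use Janus kinases itself, and reaches STAT proteins later through the cytokines that it induces.

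The 4 lists differed in ways that bear on every count. They held between 14503330 and 18999991 modelled contacts, the number that entered the caller's model. The ratio of average coverage between bins with and without an H3K27ac peak was 3.95 (UT) and 5.70 (LPS) for p30 and 6.38 (UT) and 4.12 (LPS) for p42, and its part in the differences was not tested. Loops were therefore compared in lists of equal size, in which each list was limited to its 78591 most significant loops. Of the genes used to check the cell type, 8 of 8 markers of blood stem and progenitor cells, such as Kit and Gata2, had promoter loops in all 4 lists. Of 6 genes of other tissues, Alb, Cd3e and Neurod1 had none, whereas Ins2 had 7, 8, 6 and 2 loops as deposited (values of 4 lists are given throughout as UT then LPS of p30, then UT and LPS of p42), and Myod1 and Gfap had at most 2.

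Pim1 had the most loops of the 9 genes. As deposited, its start-site bin (chr17:29705001-29710000, which holds the start site at position 29709581) had 20 loops in p30 cells without and 26 with LPS, and 22 and 20 in p42 cells. The sum of 88 was higher than that of 99.3% of the 10526 genes with loops. Stat6 followed with 56 loops over the 4 lists, Stat5a with 43, Stat5b with 38, Jak3 with 35, Tyk2 with 28, Stat3 with 17, Jak2 with 13 and Jak1 with 8. Genes with the counts most like those of Pim1, by the distance between log2(count + 1) values over the 4 lists, were Abca7 with 20, 25, 24 and 18 loops, Ddah2 with 18, 23, 25 and 19, and Cdkn2aipnl with 17, 24, 21 and 18.

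**Figure D1:**
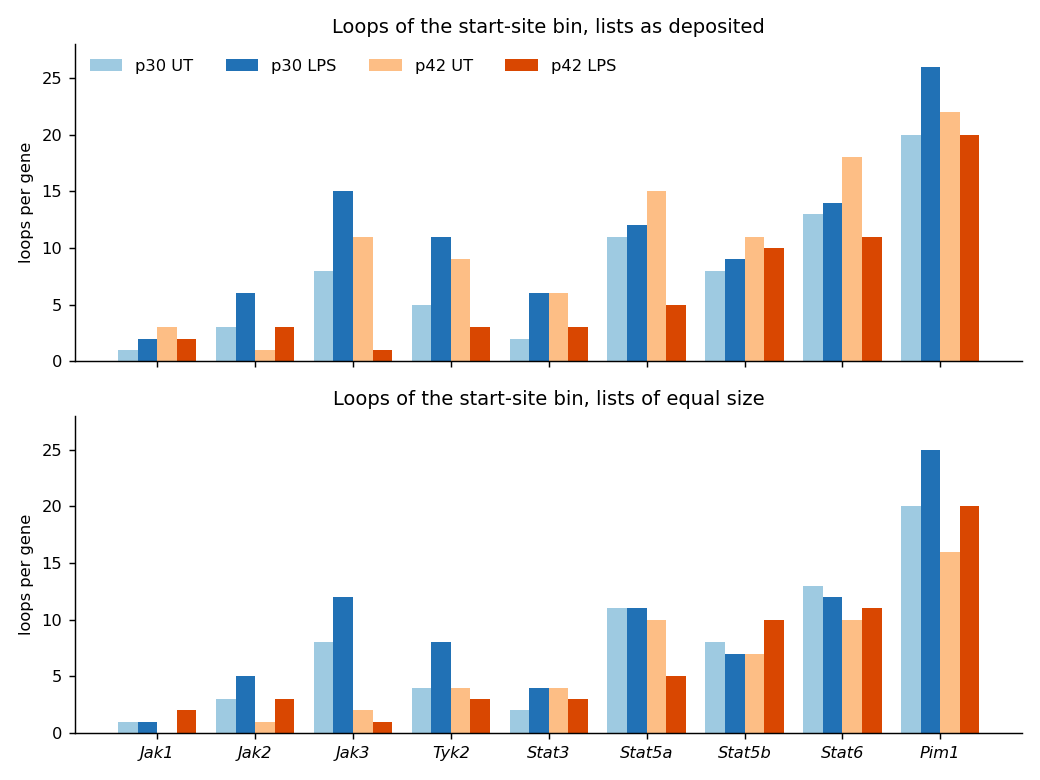
Loops of the start-site bin of each gene (vertical axis, count) in the UT and LPS lists of p30 and p42, as deposited (top) and in lists of equal size (bottom); each bar is 1 pooled list and has no error. Pim1 has 20 to 26 loops as deposited, and Jak3 has 8, 15, 11 and 1.

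The promoters of the genes are shown first for Pim1 and Jak2, since these alone held a match to a searched motif, and then for Jak3 and Tyk2, whose start-site bins had the largest differences in coverage. Each run covers 250 bases before the start site and 50 bases from it on in GRCm39, 5′ to 3′ on the strand of the gene, and capitals mark matches. The Pim1 run is chr17:29709331-29709630, plus strand, the Jak2 run chr19:29228427-29228726, plus strand, the Jak3 run chr8:72128442-72128741, plus strand and the Tyk2 run chr9:21042640-21042939, minus strand.
Pim1 promoter: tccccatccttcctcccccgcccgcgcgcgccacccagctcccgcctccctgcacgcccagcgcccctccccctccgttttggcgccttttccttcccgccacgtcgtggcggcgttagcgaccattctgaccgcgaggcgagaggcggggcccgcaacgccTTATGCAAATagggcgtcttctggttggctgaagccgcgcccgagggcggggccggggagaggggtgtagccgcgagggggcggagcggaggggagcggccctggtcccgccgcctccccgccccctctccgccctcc
Jak2 promoter: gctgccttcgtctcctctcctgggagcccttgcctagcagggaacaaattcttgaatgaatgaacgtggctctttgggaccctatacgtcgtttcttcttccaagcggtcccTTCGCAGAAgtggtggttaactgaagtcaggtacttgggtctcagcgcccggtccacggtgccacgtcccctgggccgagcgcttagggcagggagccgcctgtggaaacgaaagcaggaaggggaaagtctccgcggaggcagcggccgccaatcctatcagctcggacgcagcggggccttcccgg
Jak3 promoter: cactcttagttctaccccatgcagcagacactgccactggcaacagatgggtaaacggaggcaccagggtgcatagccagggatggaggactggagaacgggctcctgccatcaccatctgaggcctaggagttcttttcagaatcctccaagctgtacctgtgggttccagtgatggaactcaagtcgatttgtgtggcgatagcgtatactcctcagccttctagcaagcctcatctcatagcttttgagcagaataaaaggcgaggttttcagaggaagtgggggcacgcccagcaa
Tyk2 promoter: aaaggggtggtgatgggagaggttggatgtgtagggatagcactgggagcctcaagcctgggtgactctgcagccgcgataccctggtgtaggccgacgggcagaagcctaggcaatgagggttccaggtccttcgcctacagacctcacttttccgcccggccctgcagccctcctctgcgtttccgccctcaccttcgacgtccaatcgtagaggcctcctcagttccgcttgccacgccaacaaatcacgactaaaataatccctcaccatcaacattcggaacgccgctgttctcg
The letters searched on both strands were TTCNNNGAA for STAT proteins, TTNNGCAA for C/EBP proteins and TGANTCA for AP-1. The Jak2 promoter held a STAT match beginning 138 bases before the start site, and 8.82% of all 21757 promoters of this length held such a match. The Pim1 promoter held a C/EBP match that begins 88 bases before the start site, as did 10.7% of all promoters. That match overlaps the octamer ATGCAAAT of POU factors, which was added after the sequence was seen and is found in 1.63% of promoters. None of the 9 promoters held the AP-1 letters, which 7.15% of all promoters did.

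Jak3, the kinase of receptors with the common gamma chain, had 8, 15, 11 and 1 loops as deposited, and 8, 12, 2 and 1 in lists of equal size. The count was thus highest in p30 LPS and lowest in p42 LPS in both kinds of list, while the order of both UT lists turned. Its start-site bin (chr8:72125001-72130000) had a coverage of 8029, 12113, 8074 and 4865 reads in the same order of lists. Relative to the mean coverage of peak bins, p42 LPS was lower than p30 LPS by a log2 ratio of -1.11, and 0% of 6015 start-site peak bins with a coverage in both lists had a lower ratio (median -0.12). The annotated start of the Jak3 gene, upstream of its canonical start site, lies in the preceding bin, which also holds exons of Unc13a and whose coverage was 7404, 8445, 8582 and 4684.

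Of the 21 partner bins of Jak3, none was in all 4 lists, 10 were in 1 list, and 11 held start sites of other genes, more than for any other of the 9 genes. The partner with the most contacts was the bin chr8:72135001-72140000 inside Jak3, which was listed in p42 UT with 69 contacts and in p42 LPS with 62, and in neither p30 list. At 10 kb it is among the shortest loops the lists hold, and its contacts were 1.89 and 2.15 times the expected number. The bin with the start of B3gnt3 (chr8:72150001-72155000), a glycosyltransferase gene, was listed in p30 UT with 23 contacts and in p30 LPS with 27, and in neither p42 list. The bin with the start of Fcho1 (chr8:72175001-72180000), an endocytosis gene, was listed with 19 contacts in p30 UT, 28 in p30 LPS and 21 in p42 UT. A pair missing from a list has an unknown number of contacts, since only significant pairs are listed.

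Tyk2, the kinase of interferon and interleukin-12 receptors, had its highest loop count in p30 LPS and its lowest in p42 LPS, as Jak3 did. Unlike those of Jak3, its UT counts in lists of equal size did not differ between the isoforms. It had 5, 11, 9 and 3 loops as deposited, and 4, 8, 4 and 3 in lists of equal size. The coverage of its start-site bin (chr9:21040001-21045000), which also holds exons of Cdc37, was 3286, 5531, 3966 and 3140. The next bin upstream, within Cdc37, the gene of a co-chaperone of kinases, had 4853, 8878, 5247 and 4592, so that both bins were highest in p30 LPS. The 1 partner bin in all 4 lists (chr9:20940001-20945000) lay 100 kb away and held the starts of the adhesion molecule genes Icam4 and Icam5. Its contacts were 13, 24, 9 and 12, which is 7.15, 12.7, 4.80 and 6.96 times the expected number. A bin farther away with the start of Icam1 (chr9:20925001-20930000) was listed in p30 LPS with 16 contacts and in p42 UT with 14. The partner with the most contacts held the starts of Raver1, an RNA-binding protein gene, and Gm38431 (chr9:21000001-21005000), with no loop in p30 UT and 29, 24 and 19 contacts in the other lists.

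Jak2, the kinase of the thrombopoietin, erythropoietin and interleukin-3 receptors, had 3, 6, 1 and 3 loops as deposited. Its start-site bin (chr19:29225001-29230000) had a coverage of 2226, 2647, 2724 and 2321. The partner with the most contacts (chr19:29215001-29220000, within Gm59364) was listed in p30 UT with 39 contacts and in p30 LPS with 37, and in neither p42 list. A bin 185 kb upstream, in Cdc37l1, was absent from the p30 UT list and had 13, 12 and 13 contacts in the other lists. Jak1, the kinase shared by most cytokine receptors, had 1, 2, 3 and 2 loops, and none of its 7 partner bins was in more than 2 lists. Its partner with the most contacts, 10 kb inside the gene (chr4:101110001-101115000), was listed in p30 LPS with 46 and in p42 LPS with 43 contacts alone. Both genes thus had loop numbers near the middle of the genes with loops, 40.2% of which had fewer than Jak1 and 55.1% fewer than Jak2.

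Among the STAT genes, Stat6, which acts downstream of the interleukin-4 receptor, had the most loops. It had 13, 14, 18 and 11 loops as deposited, and 13, 12, 10 and 11 in lists of equal size. Of its 23 partner bins, 8 were in all 4 lists, and these fell into a downstream and an upstream group. The downstream group had the most contacts and held Nab2, a co-repressor of EGR proteins, and Nemp1, a gene of the nuclear envelope. The bin with the start of Nab2 (chr10:127500001-127505000), 25 kb away, had 74, 65, 105 and 58 contacts, 7.36, 7.82, 9.40 and 7.31 times the expected number. The bin with the start of Nemp1 (chr10:127510001-127515000), 35 kb away, had 46, 68, 76 and 37 contacts. The upstream group lay in Lrp1, the gene of an endocytic receptor, and its bin at 70 kb (chr10:127405001-127410000) had 25, 22, 24 and 19 contacts. Stat6 coverage was 5152, 4837, 6346 and 3339.

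Stat5a and Stat5b, near-identical mediators of cytokine signals for growth, lie side by side on chromosome 11 and are transcribed away from each other. Their start-site bins, chr11:100750001-100755000 and chr11:100740001-100745000, formed a loop with each other in both p42 lists, with 68 contacts in UT and 43 in LPS, and in neither p30 list. These contacts were 2.01 and 1.89 times the expected number, so this short loop stood little above the model. Stat5a had 11, 12, 15 and 5 loops as deposited and 11, 11, 10 and 5 in lists of equal size, the lowest count being that of p42 LPS in both. Stat5b had 8, 9, 11 and 10, and 8, 7, 7 and 10 in lists of equal size, which gives no such low count. A bin within Stat5b (chr11:100720001-100725000) was a further partner of Stat5a in the p42 lists alone, with 23 and 21 contacts.

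Both genes were also joined, in all 4 lists, to the bin with the start of Rab5c (chr11:100625001-100630000), a GTPase of early endosomes. That bin had 10, 14, 14 and 12 contacts with Stat5a and 13, 16, 12 and 14 with Stat5b, at 125 kb and 115 kb. The partner of Stat5b with the most contacts, 10 kb inside the gene (chr11:100730001-100735000), had 75, 68, 112 and 63. The coverage of the start-site bin was 3797, 3141, 4020 and 2345 for Stat5a and 3304, 2650, 4435 and 2391 for Stat5b. In both genes the LPS list was below the UT list of its isoform.

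Stat3, which responds to interleukin-6 and other cytokines that use gp130, had 2, 6, 6 and 3 loops as deposited and 2, 4, 4 and 3 in lists of equal size. Its start-site bin (chr11:100830001-100835000) had a coverage of 3887, 5485, 4615 and 2900, highest in p30 LPS. Of 10 partner bins, the 1 in all 4 lists lay 50 kb inside the gene (chr11:100780001-100785000), with 15, 18, 18 and 13 contacts. The partner with the most contacts, 10 kb upstream (chr11:100840001-100845000), was listed in p30 LPS with 57 contacts, in p42 UT with 79 and in p42 LPS with 47.

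Over the 9 genes, 150 pairs of a gene and a partner bin were listed, of which 135 had an H3K27ac peak in the partner bin and 27 a start site of a protein-coding gene. The pairs in all 4 lists numbered 30, of which 16 belonged to Pim1 and 8 to Stat6. A further 24 were in 3 lists, 5 in both p42 lists only, 7 in both p30 lists only, 5 in both LPS lists only, 7 in both UT lists only, 14 in another pair of lists and 58 in 1 list. The Stat5a and Stat5b loop counts for both genes here. These numbers depend on the lengths of the lists, and the shares of all loops in the same classes were not computed. The median distance of the loops was 60 kb in p30 UT and 55 kb in the other lists, and the median of contacts over expected was 4.80, 5.05, 4.66 and 5.57. Over all loops of the lists the median distances were 45, 35, 40 and 40 kb and the medians of contacts over expected 4.34, 4.31, 4.24 and 4.33.

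**Figure D2:**
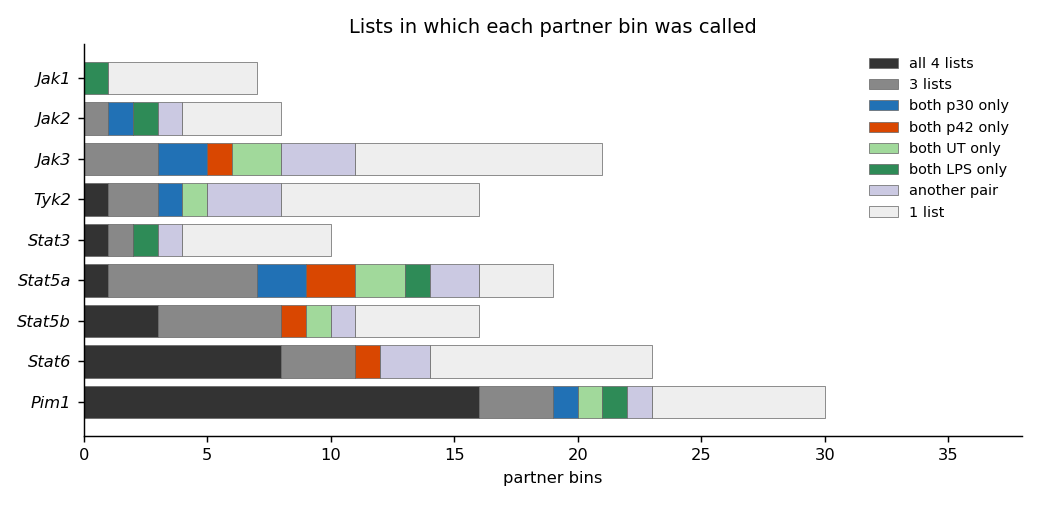
Partner bins of each gene (horizontal axis, count) by the lists in which the pair was called; "another pair" is a pair of lists that shares neither isoform nor treatment. Pim1 has 16 of 30 partner bins in all 4 lists, Stat6 has 8 of 23, and Jak1, Jak2 and Jak3 have none.

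By contacts over expected, the strongest loops of Pim1 lay about 90 kb upstream. Its bin chr17:29615001-29620000 had 106 (UT) and 214 (LPS) contacts with the start-site bin in p30 cells and 92 and 127 in p42 cells. The neighbouring bin chr17:29610001-29615000 had 80, 154, 72 and 108. These numbers were 30.7, 61.1, 27.9 and 35.9 times the expected number for the first bin and 23.3, 45, 21.6 and 30.5 times for the second. With the start-site bin, both upstream bins were highest in p30 LPS, and within each isoform the LPS list was above the UT list, an order that did not hold for the bin after the start-site bin (described with the LPS comparison). By contacts over expected, the loop with the first bin ranked 55 of 80489 and 5 of 94609 loops in the UT and LPS lists of p30, and 230 of 158233 and 33 of 78591 in those of p42. Among loops of the same distance it ranked 1 of 1398, 1 of 1493, 4 of 2731 and 2 of 1309. No annotated exon or intron lies in either bin. Over all partners the first bin had 18, 27, 23 and 25 loops and the second 17, 29, 24 and 21, so neither was joined to Pim1 alone. The partner of the second bin with the most contacts was chr17:29600001-29605000 in each list, and BC004004 also had its start in a partner of the second bin in each list. The pair of bins was singled out after the values were seen, and no p-value is given for it.

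The bins joined to Pim1 ran almost without a gap from 110 kb to 40 kb upstream. Of those 15 bins, 14 were in all 4 lists. The partner with the most contacts by count lay only 10 kb upstream (chr17:29695001-29700000, in an intron of Gm26885), with 108, 188, 130 and 138 contacts, but these were 2.20, 3.30, 2.72 and 2.65 times the expected number. A bin 30 kb upstream (chr17:29675001-29680000, in Gm36199) was listed in p30 UT with 35 contacts and in p30 LPS with 40, and in neither p42 list. The only partner in 3 or more lists that held another start site was that of Ppil1, a splicing factor gene, 225 kb upstream, with 10, 12 and 12 contacts in p30 UT, p30 LPS and p42 UT.

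**Figure D3:**
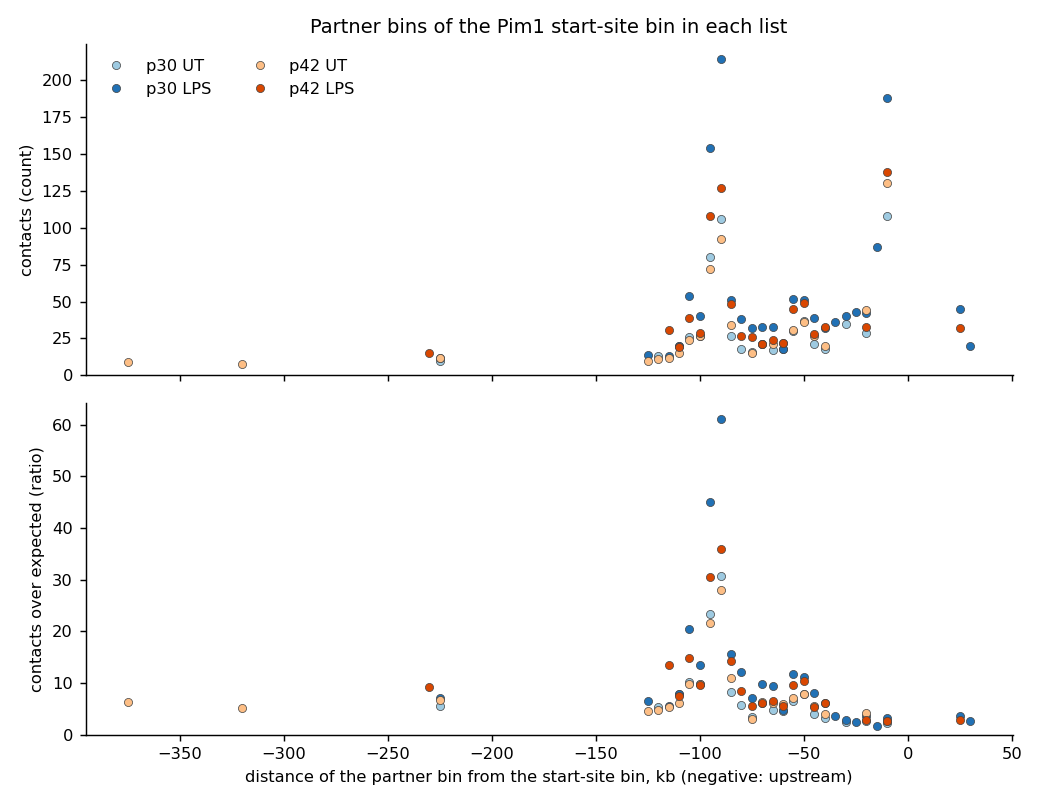
Contacts of the Pim1 start-site bin (top, count) and the same contacts over the caller's expected number (bottom, ratio) by distance of the partner bin in kb; each point is 1 loop of 1 pooled list, and pairs not listed have no point. The ratio peaks at 90 to 95 kb upstream in each list, at 61.1 and 45 in p30 LPS, whereas the count at 10 kb (108, 188, 130 and 138) exceeds that at 90 kb in 3 lists, p30 LPS being the exception with 214 at 90 kb.

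The 31-base windows around the STAT letters in these bins are shown since STAT proteins are among the known regulators of Pim1. Capitals mark the letters, and each window is given on the plus strand of GRCm39.
Pim1 upstream STAT window at chr17:29614476-29614506: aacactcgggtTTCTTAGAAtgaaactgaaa
Pim1 upstream STAT window at chr17:29614575-29614605: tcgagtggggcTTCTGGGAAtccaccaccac
Pim1 upstream STAT window at chr17:29615185-29615215: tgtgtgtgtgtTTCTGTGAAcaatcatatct
Pim1 upstream STAT window at chr17:29615585-29615615: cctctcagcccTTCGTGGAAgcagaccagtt
Pim1 upstream STAT window at chr17:29617374-29617404: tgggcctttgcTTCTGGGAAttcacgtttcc
Pim1 upstream STAT window at chr17:29618396-29618426: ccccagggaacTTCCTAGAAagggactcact
Pim1 upstream STAT window at chr17:29619279-29619309: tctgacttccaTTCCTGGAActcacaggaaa
Pim1 upstream STAT window at chr17:29619690-29619720: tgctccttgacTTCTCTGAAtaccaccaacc
The bin at 95 kb thus held 2 matches and the bin at 90 kb held 6. Of all 64985 peak bins of the lists, 77.8% held at least 1 such match, so the presence of a match is common at this length. The bin at 95 kb also held 5 AP-1 matches, and the bin at 90 kb 1, letters that 77.4% of the peak bins held. Of C/EBP matches, the bin at 95 kb held 1 and the bin at 90 kb 0, where 85.8% of the peak bins held at least 1. A match of letters is not a measured site, and the numbers of matches were not compared with those of all peak bins.

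LPS was compared with UT within each isoform to ask how the contacts of these genes stood after stimulation. In p30 cells Jak3 and Tyk2 had at least 1.5-fold and 3 loops more after LPS in lists of equal size, and 0 genes had fewer, of 8 genes with at least 3 loops in a list. Of all genes compared in this way, 14.5% were called higher and 10.9% lower. In p42 cells Stat5a had fewer loops after LPS, with 5 against 10, and 0 genes had more, of 7 genes compared. There 6.64% of all genes were called higher and 15.9% lower. Each count is small, and in lists of equal size that of the p42 cells is near the background. Without that limit on size, 5 of the 9 genes were called lower after LPS in p42 cells, whose UT list is the longest, and so were 67.2% of all genes compared. With the neighbouring bins counted as well, or with peak partners alone, the Jak3 call in p30 cells was lost (7 and 3 loops more, under 1.5-fold), and with the neighbouring bins so was that of Stat5a in p42 cells (4 loops fewer).

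Contacts were next compared at loops present in both lists. In p30 cells 19 Pim1 loops were in both lists, and LPS held 63.3% of their contacts (95% Wilson interval 61 to 65.4), 1143 against 664 in UT, against 44.7% by the modelled contacts and 51.4% by the expected numbers. Of these loops, 15 had at least 1.5-fold more contacts per modelled contact after LPS and 0 had 1.5-fold fewer, where 17.1% and 2.05% of all 47004 loops in both lists did. In p42 cells 17 Pim1 loops were in both lists, and LPS held 56.0% of the contacts (53.5 to 58.6), against 45.5% by the modelled contacts and 51.7% by the expected numbers. Here 10 of 17 were 1.5-fold higher and 0 lower, beside 3.76% and 12.9% of all 59847 loops. These loops share the start-site bin and are not independent of each other, and the intervals cover counting error only.

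Without Pim1, the other 8 genes stood closer to the lists as a whole. In p30 cells their 32 loops in both lists had 49.7% of contacts in LPS (47.2 to 52.1), and the median log2 ratio per modelled contact of these loops was 0.19, where that over all loops was 0.22. In p42 cells their 27 loops had 41.0% (38.7 to 43.4), and their median log2 ratio was -0.07, where that over all loops was -0.13. The same median for Pim1 was 1.11 in p30 cells and 0.71 in p42 cells. Tyk2, with 2 loops in both p30 lists, had an LPS share of 59.7% (47.3 to 71.0), an interval that includes the Pim1 share. Over all 9 genes the LPS share was 56.9% (55.2 to 58.5) in p30 cells and 47.9% (46.2 to 49.6) in p42 cells.

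The upstream pair of Pim1 gave an LPS share of 66.4% (62.4 to 70.2) in p30 cells and 58.9% (54.0 to 63.6) in p42 cells. The Pim1 start site lies 419 bases from the end of its bin, so the next bin (chr17:29710001-29715000), which holds most of the gene, was examined as well. Its contacts with the bin at 90 kb from the start-site bin were 88, 132, 142 and 131. Those with the other upstream bin were 81, 101, 106 and 107. For the next bin alone the LPS share was 58.0% (53.1 to 62.7) in p30 cells and 49.0% (44.6 to 53.4) in p42 cells. Both bins together gave 62.9% (59.8 to 65.9) and 53.4% (50.2 to 56.7). In p42 cells the next bin thus had 238 contacts with the upstream pair after LPS against 248 in UT, and its LPS share lay above the 45.5% by the modelled contacts with an interval that includes it. Contacts over expected of the next bin were 49.4 in UT and 47.1 after LPS with the bin at 90 kb, and 36.2 and 38.1 with the other, in p42 cells.

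H3K27ac coverage at the start sites was higher after LPS for 5 genes in p30 cells. Relative to the mean of peak bins, the log2 ratio of LPS over UT was 0.85 for Tyk2, 0.70 for Jak3, 0.60 for Stat3, 0.52 for Pim1 and 0.35 for Jak2, beside a median of 0.04 over 6234 start-site peak bins and an upper quartile of 0.21. Of these bins, 99.7% had a lower ratio than Tyk2, 99.2% than Jak3, 98.3% than Stat3, 97.0% than Pim1 and 89.9% than Jak2. In p42 cells the ratios were 0.36 for Jak2, 0.35 for Pim1 and 0.25 for Tyk2, above 97.6%, 97.6% and 95.3% of bins, where the median was -0.14. Divided by modelled contacts instead, they were 0.032, 0.029 and -0.074, so the p42 differences of Jak2 and Pim1 nearly vanished and that of Tyk2 turned, while their order among the bins does not depend on the scaling. Jak3 with -0.14 and Stat3 with -0.08 lay within the quartiles in p42 cells. Stat5a, Stat5b and Stat6 were at -0.17, -0.21 and 0.01 in p30 cells and at -0.19, -0.30 and -0.34 in p42 cells. Pim1, Tyk2 and Jak2 were thus above the upper quartile of all bins in both isoforms, and Jak3 and Stat3 in p30 cells alone; the difference between the isoforms was not tested.

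**Figure D4:**
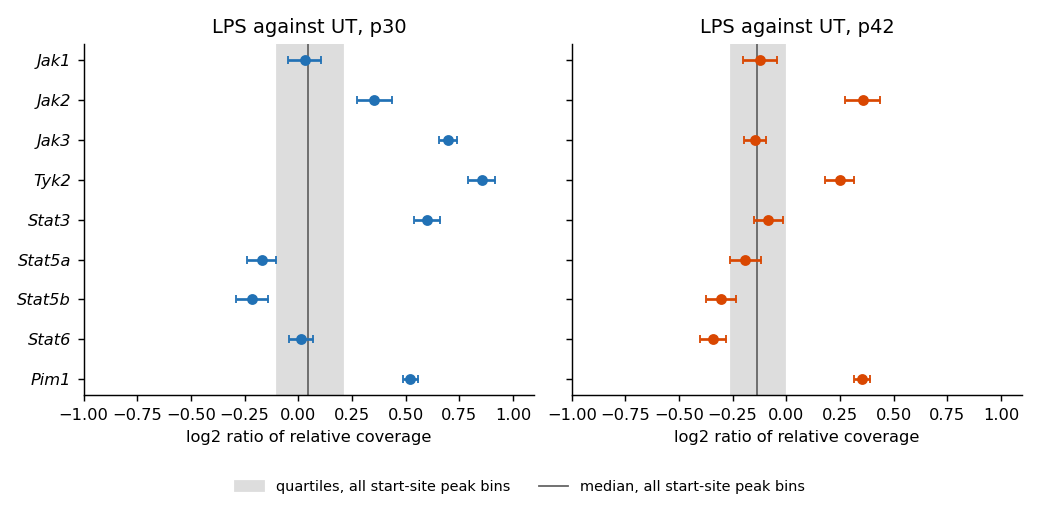
Log2 ratio of LPS over UT of the coverage of each start-site bin, relative to the mean of peak bins (horizontal axis), in p30 (left) and p42 cells (right); bars are 95% counting intervals and the grey band and line give quartiles and median of 6234 (p30) and 6442 (p42) start-site peak bins. Tyk2, Jak3, Stat3, Pim1 and Jak2 lie to the right of the band in p30 cells, and Jak2, Pim1 and Tyk2 do so in p42 cells.

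The region upstream of Pim1 was also higher in coverage after LPS. The bin at 95 kb had 9652, 17476, 10027 and 10423 reads, and that at 90 kb had 7823, 14992, 7537 and 8217. Relative to the mean of peak bins, the log2 ratios of LPS over UT were 0.96 and 1.04 in p30 cells and 0.64 and 0.71 in p42 cells. In p42 cells the reads rose less than these ratios, which depend on the scaling. The bins at 100 kb and 105 kb upstream had ratios of 1.25 and 0.96 in p30 cells and 0.98 and 0.81 in p42 cells. The start-site bin itself had 11811, 15795, 12414 and 10554 reads, and its next bin was at -0.11 in p30 cells and -0.33 in p42 cells. The caller's expected number contains the coverage of both bins, and the part of coverage in the contacts was not tested.

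**Figure D5:**
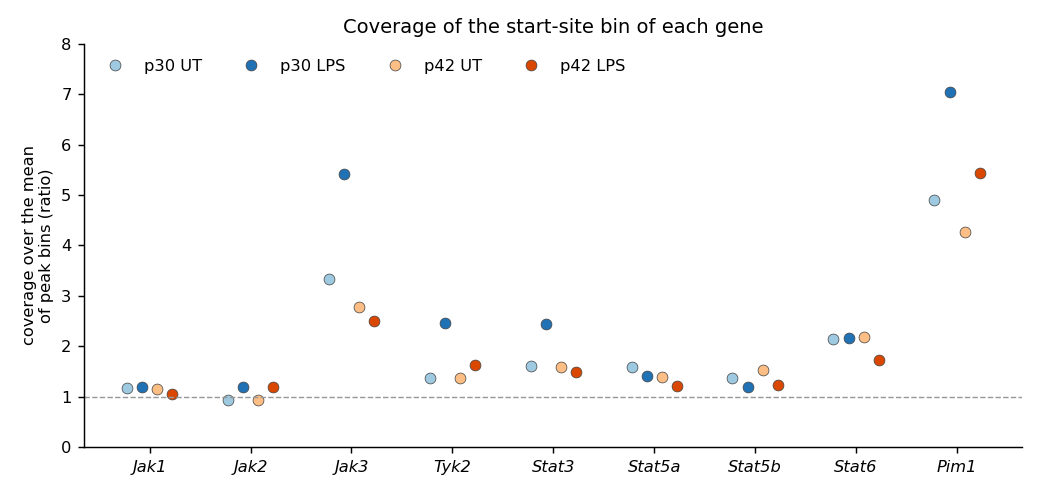
Coverage of the start-site bin of each gene over the mean coverage of peak bins of the same list (vertical axis, ratio); each point is 1 pooled list and the dashed line marks the mean of peak bins. Pim1 lies between 4.26 and 7.05 and Jak3 between 2.51 and 5.41, each highest in p30 LPS, and the other genes lie below 2.5.

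The isoforms were compared within each treatment to ask whether p30 and p42 cells differed at these genes. In UT cells Jak3 had fewer loops in p42 than in p30 (2 against 8 in lists of equal size), and 0 genes had more, of 8 compared, where 17.3% of all genes were called higher and 10.2% lower in p42. As deposited, where the p42 UT list is nearly as long as both p30 lists together, Jak3 had 11 against 8, so its direction in UT cells turned with the size of the list. After LPS, Jak3, Tyk2 and Stat5a had fewer loops in p42 than in p30, and 0 genes had more, of 8 compared, beside 10.6% and 18.8% of all genes. The counts in p42 and p30 were 1 and 12 for Jak3, 3 and 8 for Tyk2 and 5 and 11 for Stat5a. With the neighbouring bins counted as well, the Stat5a call was lost (2 loops fewer in p42).

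In UT cells p42 held 51.2% of the contacts of 18 Pim1 loops (48.4 to 53.9), against 51.4% by the modelled contacts, and 0 of them were 1.5-fold higher or lower, beside 19.3% and 2.88% of all loops in both lists. This share differed from that of the modelled contacts by less than its counting interval. After LPS p42 held 43.3% of the contacts of 19 Pim1 loops (41.2 to 45.5), against 52.2% by the modelled contacts and 49.3% by the expected numbers. Of these, 9 were 1.5-fold lower and 1 was higher in p42, beside 13.2% and 4.07% of all loops. For the upstream pair the p42 share was 46.9% (41.7 to 52.1) in UT and 39.0% (35.2 to 42.9) after LPS. At the next bin the order turned, with 59.5% (54.7 to 64.1) in UT, above the 51.4% by modelled contacts, and 50.5% (46.0 to 55.0) after LPS, an interval that includes the 52.2%. The 8 other genes had a p42 share of 54.9% (52.6 to 57.1) in UT and 46.4% (43.7 to 49.0) after LPS. The median log2 ratio per modelled contact of their loops was 0.08 in UT, where that over all loops was 0.20. After LPS these medians were -0.30 and -0.13.

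Coverage of the start-site bins differed between the isoforms chiefly after LPS. The log2 ratio of p42 over p30 after LPS was -1.11 for Jak3, -0.71 for Stat3, -0.61 for Tyk2, -0.37 for Pim1 and -0.33 for Stat6, and between -0.21 and 0.06 for the other 4 genes, where the median of all bins was -0.12. Divided by modelled contacts, all 9 genes were lower in p42, from -1.44 for Jak3 to -0.27 for Stat5b, with Pim1 at -0.71 and Stat6 at -0.66. That scaling moves all bins by the same amount, so their order is unchanged. Stat5b still had a higher ratio than 76.7% of bins, Jak2 than 70.6%, Jak1 than 41.6% and Stat5a than 34.5%. Of all bins, 1.15% had a lower ratio than Stat3 and 3.11% than Tyk2. In UT cells the ratios lay between -0.27 for Jak3 and 0.15 for Stat5b, beside a median of 0.06. The p30 LPS list enters both the comparison of isoforms after LPS and that of treatments in p30 cells, so the low p42 values and the high LPS values of Jak3, Tyk2 and Stat3 share it.

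Of 59 genes in 7 lists of STAT and PIM relatives, inhibitors, phosphatases, receptors and targets, 53 had a promoter loop and 39 could be compared in each comparison. In p42 against p30, 6 were called higher and 7 lower in UT, beside 17.3% and 10.2% of all genes, and 4 higher and 5 lower after LPS, beside 10.6% and 18.8%. In LPS against UT, 8 were called higher and 7 lower in p30 cells, beside 14.5% and 10.9% of all genes, and 7 higher and 4 lower in p42 cells, beside 6.64% and 15.9%. Calls in both directions were made in each comparison.

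Among the inhibitors, Socs3 and Cish, which STAT proteins induce and which block the receptors in turn, had more loops after LPS in p30 cells, Socs3 with 14 against 9 and Cish with 14 against 9 in lists of equal size. In p42 cells Cish had 13 against 6 and Socs1 had 5 against 1, but as deposited these were 13 against 11 and 5 against 4, which reach no call. Socs1 had 2 against 6 in p30 cells. Between the isoforms, Socs1, Socs5 and Cish were called lower in p42 in UT, with 1 against 6, 4 against 7 and 6 against 9, and Socs1 higher after LPS with 5 against 2. Of these, Socs5 and Cish were higher in p42 UT as deposited, with 11 against 7 and 11 against 9, and Socs1 with 4 against 6 in UT and 5 against 3 after LPS reached no call. Socs7 had 3, 4, 1 and 3 loops and was not called between the isoforms. Pias1 had 3, 3, 2 and 0 loops and Pias4 had 9, 7, 8 and 4, and both of these inhibitors of STAT activity were called lower in p42 after LPS.

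Of the phosphatases and adaptors, Ptprc, which encodes CD45, had 8, 18, 20 and 20 loops and Cbl, a ubiquitin ligase gene, had 8, 5, 16 and 6, and both were called higher in p42 in UT cells. Of the receptors, Ifngr1 had 8, 7, 13 and 8 and Csf2ra had 0, 0, 1 and 1, while Il10ra had 5, 4, 1 and 3 and Csf3r had 5, 4, 3 and 3, but as deposited both had 5, 5, 8 and 3, which turns the direction in UT. The interferon receptor gene Ifnar2 had 7, 18, 11 and 18 loops and was called higher after LPS in both isoforms, but as deposited it had 7, 21, 31 and 18, so the direction in p42 cells turned with the size of the list. Of the 20 receptor genes, 14 had any promoter loop.

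Of the 15 targets, Ccnd1, a cyclin gene, had 11, 6, 5 and 3 loops and was called lower in p42 under both treatments. Cdkn1a, which encodes a cell cycle inhibitor and starts on the same chromosome upstream of Pim1, had 27, 25, 21 and 22 and was not called. Id1 had 8, 4, 10 and 8 and was called higher in p42 after LPS, and Ccnd3 had 9, 12, 10 and 13. Pim2, a relative of Pim1, had 5, 4, 4 and 3 loops, and Stat4, a relative of the STAT genes, had 10, 14, 13 and 14, neither being called in any comparison.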

How the data were processed

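H3K27ac HiChIP was performed by the authors in HPC-7 cells. Per the study's methods, reads were mapped to mm39 with BWA-MEM (0.7.17), and ligation products were kept and duplicates removed with pairtools. The same methods name FitHiChIP as the loop caller. The deposited lists are labelled with bins of 5 kb and a q-value limit of 0.01. Other settings of the caller are not given in the sources used here. Each deposited list pools 2 libraries and has 26 columns without a header, of which 11 were used. The authors' contact count gives the ligation products of each bin pair in whole numbers. The deposited coverage count is the number of reads of a bin, and the deposited coverage bias is a ratio to the mean of peak bins or of other bins. The authors' expected count is the caller's estimate from distance and coverage, the deposited contact probability is that estimate as a fraction of all modelled contacts, and the authors' q-value is an adjusted p-value over tested pairs. Since the caller corrects for coverage and lists significant pairs alone, real differences in H3K27ac can be removed in part, and contacts of unlisted pairs are unknown.

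Modelled contacts and the mean coverage of peak bins were recovered from expected count over probability and from coverage over bias. Start sites were those of canonical transcripts in GENCODE M39, and sequences were read from GRCm39. Genes with at least 3 loops in either list were compared and called at 1.5-fold and 3 loops, in lists of equal size. The 95% Wilson intervals of shares reflect counting error alone, and no p-value was computed, as replicates were pooled. Coverage intervals are 95% counting intervals of a log2 ratio. The genes and the pathway and marker lists were chosen with earlier results of these data known. Named beside the 9 genes were, by a set rule, each gene's partner bin with the most contacts, partner bins with at least 15 contacts in both lists of 1 isoform alone, the 2 genes per pathway list and direction with the largest difference of 1 sign under both treatments, and the 3 genes nearest to Pim1; others were chosen after their values were seen. Counting and calling were tested on simulated data. Alternatives were the lists as deposited, q-values under 0.001 and 1e-05, at least 10 contacts, at least 20 kb, the neighbouring bins, peak partners alone, loops in all 4 lists and other scalings of coverage. Python 3.11.15, pandas 2.3.3, numpy 2.4.6, scipy 1.17.1 and matplotlib 3.10.9 were used.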

Additional observations from a re-analysis of the deposited data

Results flagged for a closer look

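Differences between LPS and UT of opposite sign in p30 and p42 cells, of which at least 1 reached the call in loops or 1.5-fold in coverage, were found for Jak3, Tyk2 and Stat3. Each rests on 1 pooled list per group, and the difference between the isoforms was not tested. Smaller differences of opposite sign, such as that of Stat5b with 1 loop fewer in p30 and 3 more in p42 cells, are not listed. Jak3 had 4 loops more after LPS in p30 cells and 1 fewer in p42 cells in lists of equal size, a difference of 5 loops. Tyk2 had 4 more and 1 fewer as well, again a difference of 5. The p42 side of both is 1 loop, and with the neighbouring bins it was 0 for Jak3 and 4 loops more for Tyk2, while for Tyk2 it was 0 with loops of at least 20 kb. In the lists as deposited, of which p42 UT is the longest, it was -10 for Jak3 and -6 for Tyk2, and at q-values under 0.001 -7 and -3. The coverage of the Tyk2 start-site bin was higher after LPS in both isoforms, by log2 ratios of 0.85 and 0.25, the second of which was -0.074 when divided by modelled contacts. The log2 ratio of LPS over UT of the Jak3 start-site bin was 0.70 in p30 cells and -0.14 in p42 cells, which is 0.84 apart. That of Stat3 was 0.60 and -0.08, which is 0.68 apart. The median over all start-site peak bins was 0.04 in p30 cells and -0.14 in p42 cells, so the p42 values of Jak3 and Stat3 lay within the quartiles of all bins. Divided by the median of start-site peak bins, the p42 ratios were 0.0051 for Jak3 and 0.066 for Stat3 and the p30 ratios 0.64 and 0.54, so the opposite sign did not hold under that scaling. The ratio of peak to other coverage moved with these values, since it was 3.95 in p30 UT and 5.70 in p30 LPS but 6.38 in p42 UT and 4.12 in p42 LPS; its part in the result was not tested.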

How the results depend on the processing

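No paired analysis was possible because the deposited lists pool both libraries of a group, and for the same reason no library could be left out. With the lists as deposited, members called higher and lower numbered 2 and 0 in p42 against p30 in UT, 0 and 5 after LPS, 4 and 0 in LPS against UT in p30 cells and 0 and 5 in p42 cells. Of all genes, 61.2% and 0.807%, 6% and 29.1%, 23.2% and 5.86%, and 0.129% and 67.2% were called in these lists of unequal length. At q-values under 0.001 they were 3 and 0 in the UT comparison and 6 members were lower after LPS in p42 cells; at q-values under 1e-05 these numbers were 2 and 0, and 4. Of all genes, 62.4% were higher in the UT comparison and 67.7% lower after LPS in p42 cells at the first limit, and 62.5% and 67.1% at the second. The Jak3 difference of p42 minus p30 in UT turned from -6 loops to 3 as deposited, 3 at 0.001 and 1 at 1e-05. With loops of at least 20 kb, 2 members were lower in the UT comparison and 1 was higher after LPS in p42 cells; with the neighbouring bins, 1 was higher and 0 lower there. Of the 7 calls, 4 were kept with the neighbouring bins, where Jak3 after LPS in p30 cells and both Stat5a calls were lost, and 6 or 7 under the other alternatives. The LPS share of contacts in p30 cells was 59.1% for loops in all 4 lists, and the other shares of the 9 genes stayed within their intervals. The median log2 coverage ratio of the 9 genes was -0.01 in UT and -0.33 after LPS for p42 against p30, and 0.35 in p30 and -0.13 in p42 cells for LPS against UT. It became 0.18, -0.66, 0.56 and -0.45 when divided by modelled contacts, and -0.12, -0.22 and 0.025 (first, second and last of these, the last with its sign turned) when divided by the median of start-site peak bins. The median of contacts over expected in p42 UT was 5.87 in lists of equal size. For the Pim1 upstream pair, the next bin, chosen after seeing the data, turned the p42 share in UT from 46.9% to 59.5%. The cause of these changes was not tested. Depth limits loops with about 10 contacts, whose presence in a list can turn on a few contacts.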
